A study of Homo sapiens with 18 samples.

Results

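Transcripts of the COPI coatomer, the 7-subunit coat that is recruited to Golgi membranes, were followed in IMR90 ER:RAS cells. The subunits are encoded by COPA, COPB1, COPB2, COPE, COPG1, COPG2, COPZ1, COPZ2 and ARCN1, which were chosen by gene symbol with no use of their values. All 9 were found among the 28266 genes of the count table and all 9 were among the 14341 genes that passed the filter on low counts, with between 399 and 13889 counts per library. IMR90 cells are human lung fibroblasts kept as a cell line. Every group carried the ER:RAS fusion, a steroid receptor domain joined to oncogenic RAS that 4-hydroxytamoxifen (4OHT) switches on, and the labels give the genotype as WT. RNA came from 6 groups of 3 libraries, all collected on day 10. Control cells received DMSO and senescent cells received 100 nM 4OHT, and 7 days later DMSO or an inhibitor was added for 3 days, IMP1088 at 300 nM or DDD86481 at a dose of 1.5 µM. IMP1088 and DDD86481 are inhibitors of the N-myristoyltransferases NMT1 and NMT2 (NMTi). Because their doses differed, values for the inhibitors are given side by side and were not compared with each other.

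Coatomer is a single assembly that buds vesicles for transport from the Golgi back to the endoplasmic reticulum (ER) and between Golgi cisternae. Its F-subcomplex, which resembles the clathrin adaptors, holds β-COP (COPB1), γ-COP (COPG1 or COPG2), δ-COP (ARCN1) and ζ-COP (COPZ1 or COPZ2), and its B-subcomplex, the cage-like outer part, holds α-COP (COPA), β′-COP (COPB2) and ε-COP (COPE). The paralogues COPG1 and COPG2, and COPZ1 and COPZ2, replace each other in the coat. The small GTPase ARF1, which is N-myristoylated and is activated at the Golgi by the exchange factor GBF1, brings the complete coatomer to the membrane, and ARFGAP proteins end the cycle by stimulating GTP hydrolysis.

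The genes lie on 7 chromosomes. On the GRCh38.p14 assembly, RefSeq places COPA on chr1, COPB2 and COPG1 on chr3, COPG2 on chr7, COPB1 and ARCN1 on chr11, COPZ1 on chr12, COPZ2 on chr17 and COPE on chr19. Promoters of 300 bases, from 250 bases before to 50 bases after each start, were read for all 9 genes from RefSeq because 5 of the 9 transcripts were higher with both inhibitors in senescent cells. The 6 letters GACGTG, read on either strand, were present in 8 of the 9, and in each of these 8 a match began within 50 bases of the start. Among 27305 genes with a RefSeq promoter, 9.34% held GACGTG in the 300 bases and 3.65% held it within 50 bases of the start. Among the 11104 of them that were tested here the shares were 13.16% and 5.33%. A gene was counted, here and for the other motifs, if any of its promoters held the letters. Over only the 250 bases before the start, GACGTG was in 4 of the 9 (COPB1, COPB2, COPG1 and ARCN1) and in 7.85% of the 27305 genes. These letters were picked after the member promoters had been read, so the counts are a description. The window nearest the start of each gene is shown 5′ to 3′ in the direction of the gene, with GACGTG or its reverse complement CACGTC in capitals, on GRCh38.p14. The promoter start used for COPZ2 lies inside the gene, which RefSeq places at chr17:48026167-48048053.
COPA, minus strand, chr1:160343227-160343256: gagagggtcgctGACGTGgaggcgtccgaa
COPB1, minus strand, chr11:14499841-14499870: cccacccccttcCACGTCagccaaggactc
COPB2, minus strand, chr3:139389632-139389661: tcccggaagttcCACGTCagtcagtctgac
COPE, minus strand, chr19:18919373-18919402: ttgcttccggctGACGTGtctttcaggaag
COPG1, plus strand, chr3:129249585-129249614: agagcgctgggcGACGTGgccagtcggggc
ARCN1, plus strand, chr11:118572378-118572407: cttccggttgaaGACGTGgcttggggccgc
COPZ1, plus strand, chr12:54325126-54325155: cttttgcggctcCACGTCggcaccagctgc
COPZ2, minus strand, chr17:48037748-48037777: atgcagcggcccgaggcctggcCACGTCcg

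In COPA, COPB1, COPB2 and COPE the 6 letters stood within TGACGTG, the core of the unfolded protein response element (UPRE) that XBP1 and ATF6 are known to bind. This longer word was in 4 of 9 members and in 2.4% of the 27305 genes over the 300 bases, and in 2 of 9 members (COPB1 and COPB2) and 2.05% of the genes over the 250 bases before the start. COPG2 held no GACGTG in its 300 bases. No member held the ER stress response element (CCAAT, 9 bases of any kind, then CCACG), its second form (ATTGG, 1 base of any kind, then CCACG) or TGATGCA, the core of the ATF4 element. These were in 0.09%, 0.07% and 2.68% of the genes over 250 bases on either strand. CCACG alone was in 7 of 9 members and 37.52% of the genes. For motifs other than GACGTG, the share among the genes tested here was not counted, and for GACGTG that share was higher than among all genes. A match says nothing about binding, and the absence of a match says only that the letters are not in the window.

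The libraries held between 16143716 and 23189950 counts, and a member's counting error ran from 0.849% to 5.01% of its value. The spread between the 3 libraries of a group was larger for most members, with coefficients of variation from 0.952% to 24.7%. Levels are given in CPM, counts per 1000000 after TMM scaling of the libraries, in the order of replicates 1, 2 and 3. All 8 fibroblast markers exceeded 1 CPM on average (summed level 11326 to 34681 CPM), no blood marker of 4 did (0.313 to 0.874 CPM), and 3 of 4 endothelial markers (1.09 to 33.9 CPM) and 2 of 5 epithelial markers (26.5 to 119 CPM), the keratins KRT18 and KRT19, did. Their part in the results was not tested. CDKN1A, which encodes the cell cycle inhibitor p21, was 377 ± 34.6 CPM in control and 2126 ± 159 CPM in senescent cells with DMSO (SD, n = 3 libraries), and LMNB1, the lamin that senescent cells lose, was 27.2 ± 0.917 and 2.08 ± 1.05 CPM. With IMP1088 and DDD86481, CDKN1A was 344 ± 45.5 and 340 ± 14.2 CPM in control cells. In senescent cells it was 1319 ± 126 and 1389 ± 117 CPM. LMNB1 with the inhibitors, in the same order, was 10.3 ± 0.572 and 11.1 ± 2.51 CPM in control cells. In senescent cells LMNB1 was 4.28 ± 0.935 and 4.13 ± 1.85 CPM. The part of these marker differences in the results was not tested. HSPA5, the ER chaperone that rises in the unfolded protein response, was 822 ± 40.0 CPM in control cells with DMSO, 1908 ± 213 CPM with IMP1088 and 1932 ± 564 CPM with DDD86481. In senescent cells it was 1171 ± 82.6, 4648 ± 152 and 3842 ± 303 CPM in the same order.

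Replicate 3 of the control cells with DMSO stood apart in a way that touched several subunits. Its difference from the mean of the other libraries of its group followed transcript length, with genes split by length into 3 sets of like size. Each library was measured in this way, so replicate 3 is part of the reference of replicates 1 and 2. The longest set minus the shortest gave -0.67 on the log2 scale, while replicate 1 gave 0.51, replicate 2 gave 0.16 and the other 15 libraries stayed between -0.17 and 0.22. COPZ2 and COPE, with the shortest transcripts, were 0.57 and 0.50 log2 units higher in replicate 3 than in the mean of replicates 1 and 2. COPA and ARCN1, with the longest, were lower there by -0.51 and -0.55 log2 units. The subunit calls of each comparison with control cells are therefore also given without this library, and the part of transcript length in the results was not tested.

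**Figure D1:**
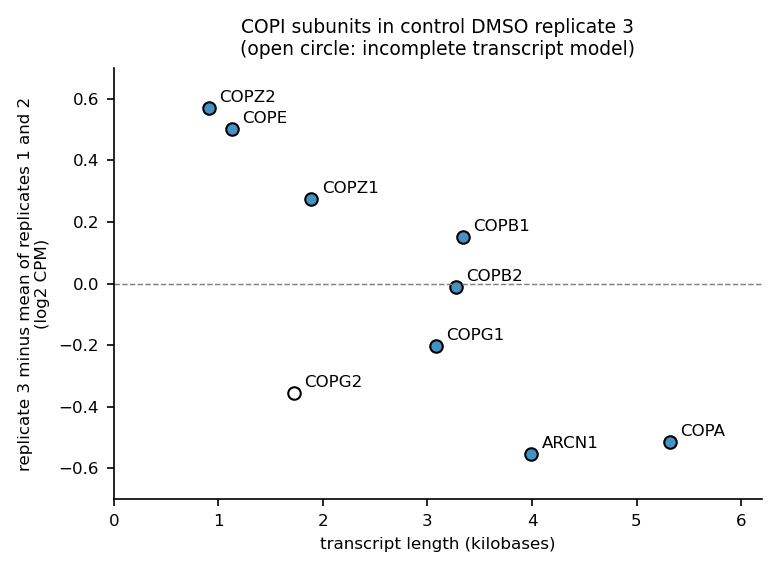
Log2 CPM of each COPI subunit in replicate 3 of the control cells with DMSO, minus the mean of replicates 1 and 2 (y axis), against the length of its main transcript in kilobases (x axis), 1 point per gene. Subunits with short transcripts lie above 0 and those with the longest lie below, while COPG2, whose transcript model is incomplete (open circle), lies below at -0.36.

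Levels of different subunits were compared per kilobase of the main transcript. COPE was the highest subunit in control cells with DMSO, at 166 ± 35.3 CPM per kilobase, and COPB2 came next at 121 ± 3.41. COPB1, COPZ1, COPG1, COPA, ARCN1 and COPZ2 followed, from 104 ± 6.60 down to 62.1 ± 15.3, and each of these overlapped with the next in this order. COPG2 was lowest at 27.8 ± 3.82 CPM per kilobase, with no overlap with COPZ2. Its length of 1722 bases comes from an incomplete transcript model, and a longer transcript would place it lower still. In senescent cells with DMSO the lead of COPE was wider, at 234 ± 25.4 CPM per kilobase against 148 ± 1.48 for COPB2, and the libraries of the pair did not overlap. COPB1 then stood seventh, at 79.2 ± 2.32 CPM per kilobase, where it had been the third in control cells. COPZ2 (28.9 ± 1.64) and COPG2 (21.5 ± 1.65) were the lowest. With inhibitors, COPE reached 322 ± 3.07 (IMP1088) and 322 ± 22.6 (DDD86481) CPM per kilobase in senescent cells. In control cells with DDD86481, COPB2 (144 ± 14.3) stood above COPE (132 ± 10.5), with overlapping libraries.

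**Figure D2:**
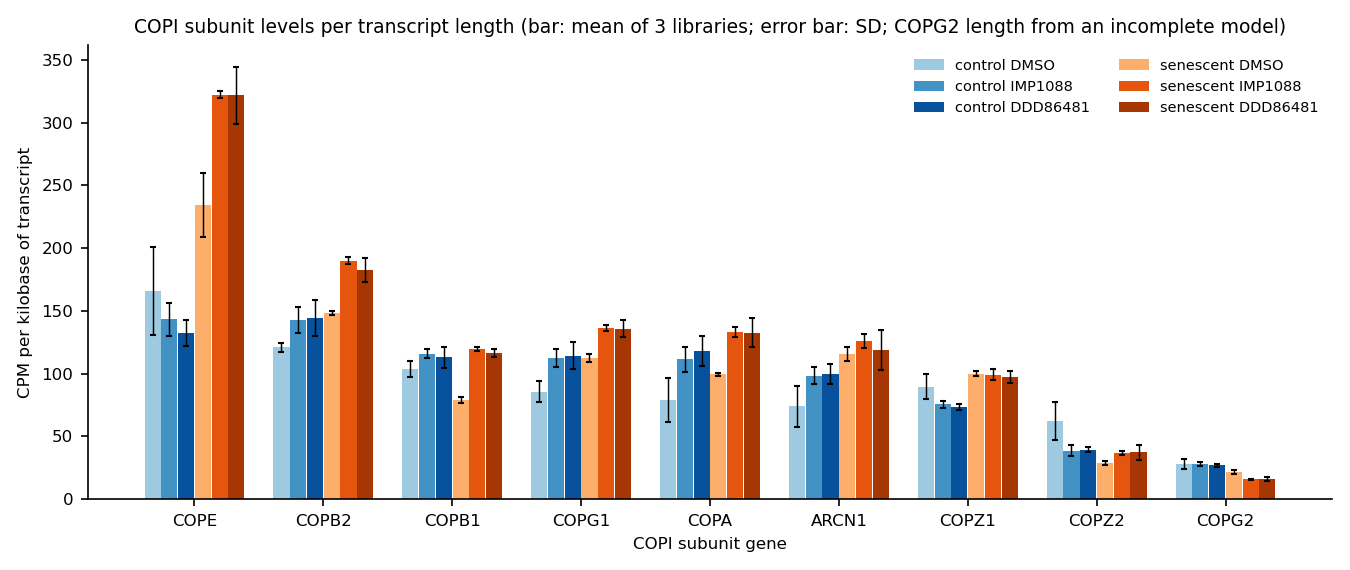
CPM per kilobase of main transcript (y axis) for the 9 COPI subunit genes (x axis) in the 6 groups, as bars of the mean of 3 libraries with SD error bars. COPE and COPB2 are the highest subunits, COPE rises from 166 to 322 CPM per kilobase between control cells with DMSO and senescent cells with IMP1088, and COPZ2 and COPG2 are the lowest in every group.

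Senescence changed the subunits in both directions. In senescent cells with DMSO, 5 of the 9 transcripts were higher than in control cells with DMSO (ARCN1, COPE, COPG1, COPA and COPB2) and 3 were lower (COPZ2, COPB1 and COPG2), by edgeR's quasi-likelihood test with Benjamini-Hochberg adjustment over all genes tested. Of all genes, 68.5% were called in this comparison, 32.5% higher and 36% lower, so a call by itself did not set the subunits apart. The libraries of the groups did not overlap for 8 of the 9, and for 67.6% of all genes. The median log2 fold change of the 9 was 0.29, against -0.051 over all genes. Levels in bulk RNA do not tell fewer cells from less RNA per cell. The labels only number the replicates, and the study describes its replicates of these treatments as independent experiments.

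Of the F-subcomplex, ARCN1 rose the most and COPZ2 fell the most. Both kept this place without control replicate 3, with smaller log2 fold changes of 0.48 (ARCN1) and -0.89 (COPZ2). ARCN1, the δ subunit that corresponds to the medium chain of adaptors, was 354, 308 and 225 CPM in control cells and 486, 451 and 447 CPM in senescent cells, so that the groups did not overlap (log2 fold change 0.64 ± 0.13 SE, adjusted p = 0.000166). COPZ2, the minor ζ subunit, was 45.4, 51.98 and 72.2 CPM in control and 25.3, 25.6 and 28.0 CPM in senescent cells, a log2 change of -1.101 ± 0.14 (adjusted p = 1.12e-06). All 3 senescent libraries lay below all 3 control libraries, to 0.466 of the control level. COPZ1, the major ζ subunit, was 159, 157 and 191 CPM against 186, 187 and 194 CPM, with overlap in the range of replicate 3 (0.16 ± 0.083, 95% interval -0.014 to 0.33, adjusted p = 0.0951). COPB1, the β subunit that contacts ARF1, was 328, 339.6 and 371 CPM in control and 273, 262 and 258 CPM in senescent cells (-0.39 ± 0.078, adjusted p = 0.000173). Its senescent libraries were all below the lowest control library. COPG1, the main γ subunit, went from 291, 261 and 239 CPM to 346, 338 and 357 CPM (0.40 ± 0.090, adjusted p = 0.000624). COPG2, its paralogue, went the other way, from 50.7, 52.4 and 40.3 CPM to 36.9, 40.0 and 34.3 CPM (-0.37 ± 0.11, adjusted p = 0.00416). Neither γ gene had overlapping groups, although for COPG2 the gap between the highest senescent and the lowest control library was narrow.

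All 3 B-subcomplex transcripts rose in senescence. COPE, the ε subunit that stabilises α-COP, was 159, 170.1 and 233 CPM in control and 249, 247 and 298 CPM in senescent cells (0.50 ± 0.12, adjusted p = 0.00106). COPA, the α subunit that reads dilysine sorting signals, was 510.0, 423 and 325 CPM in control and 525, 525 and 537 CPM in senescent cells (0.34 ± 0.12, adjusted p = 0.0216). The control libraries of COPA spread more than the difference between the means, and the senescent libraries lay together just above the highest of them. COPB2, the β′ subunit, which also binds dilysine signals, was 408, 386 and 394 CPM against 488, 479 and 487 CPM (0.29 ± 0.085, adjusted p = 0.00473), tight in both groups. Without control replicate 3, COPA was no longer called (0.18, adjusted p = 0.119) and COPZ1 was (0.26, adjusted p = 0.00477), and the call of COPA was also lost without control replicate 2 (0.31, adjusted p = 0.0694) or senescent replicate 3 (0.32, adjusted p = 0.0536). With upper quartile scaling, which moved the median of all genes by -0.15 log2 units, COPA (0.18, adjusted p = 0.168) and COPB2 (0.14, adjusted p = 0.135) were not called, leaving 3 higher and 3 lower. The rise of COPE in senescence was larger without control replicate 3, at 0.69, and then exceeded that of ARCN1, 0.48. The shares of all genes called in these alternative fits are not given.

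**Figure D3:**
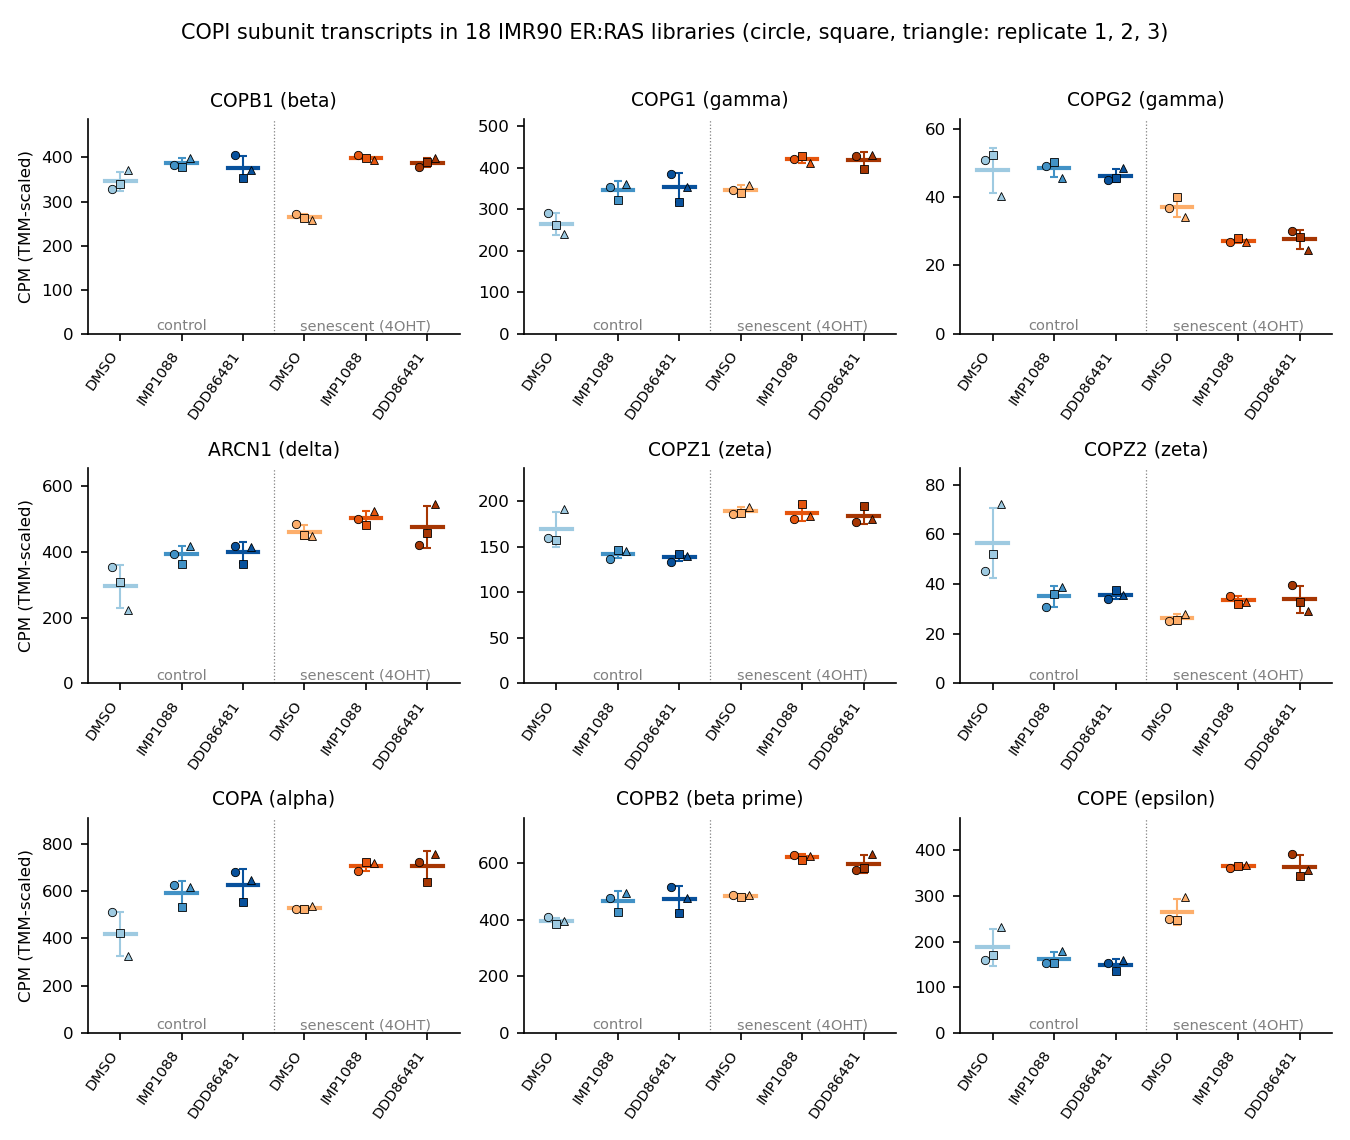
TMM-scaled CPM (y axis, from 0) of each COPI subunit in the 18 libraries, grouped by state and treatment (x axis), with 1 marker per library (circle, square and triangle for replicates 1, 2 and 3), a line at the mean of 3 and SD error bars. COPB1 is lowest in senescent cells with DMSO (258 to 273 CPM), COPE is higher in all 9 senescent libraries (247 to 392.4 CPM) than in the 9 control libraries (136 to 233 CPM), and COPG2 is lowest in senescent cells with either inhibitor (24.5 to 29.97 CPM).

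In senescent cells, both inhibitors were followed by higher transcripts of the same 5 subunits, COPB1, COPE, COPA, COPB2 and COPG1, and by lower COPG2. With IMP1088, 6 of the 9 were called, where 44.4% of all genes were (20.6% higher and 23.9% lower), and with DDD86481 6 of the 9 were called, where 43.2% were (20.1% higher and 23.1% lower). The libraries did not overlap with the reference for 7 of the 9 with each, against 61% of all genes with IMP1088 and 52.6% with DDD86481. The 2 comparisons share the senescent cells with DMSO as their reference. The median log2 fold change of the subunits was 0.35 with IMP1088 and 0.30 with DDD86481, and that of all genes was -0.043 and -0.037.

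COPB1, which had been low in senescent cells with DMSO at 258 to 273 CPM, was 404, 398 and 394 CPM with IMP1088 (1.51-fold, log2 0.59 ± 0.078, adjusted p = 4.06e-06) and 377, 390.3 and 398 CPM with DDD86481 (1.47-fold, log2 0.56 ± 0.078, adjusted p = 9.41e-06). Every treated library lay above every senescent DMSO library and above the highest control library with DMSO, 371 CPM. COPG1 was 419, 427 and 411 CPM with IMP1088 (0.27 ± 0.090, adjusted p = 0.0180) and 429, 395 and 431 CPM with DDD86481 (0.27 ± 0.090, adjusted p = 0.0200). COPG2 fell to 26.9, 28.1 and 26.7 CPM with IMP1088 (-0.44 ± 0.11, adjusted p = 0.00228) and to 29.97, 28.4 and 24.5 CPM with DDD86481 (-0.42 ± 0.11, adjusted p = 0.00335), from 34.3 to 40.0 CPM. The γ paralogues thus moved apart in both comparisons and no group overlapped with its reference.

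The B-subcomplex rose as a whole. COPE was 361, 365 and 368 CPM with IMP1088 (0.46 ± 0.12, adjusted p = 0.00387) and 392.4, 343 and 356 CPM with DDD86481 (0.46 ± 0.12, adjusted p = 0.00426), against 247 to 298 CPM in the reference. COPA was 684, 722 and 718 CPM with IMP1088 (0.42 ± 0.12, adjusted p = 0.00908) and 723, 637 and 758 CPM with DDD86481 (0.42 ± 0.12, adjusted p = 0.0102), and the reference libraries were 525 to 537 CPM. COPB2 was 630.2, 612 and 625 CPM with IMP1088 (0.36 ± 0.085, adjusted p = 0.00169) and 576, 582 and 633 CPM with DDD86481 (0.30 ± 0.085, adjusted p = 0.00691), above its reference of 479 to 488 CPM. For these 3 genes no treated library came down to the reference range.

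The remaining F-subcomplex members did not pass the test in senescent cells, although COPZ2 did under some alternatives. COPZ1 was 181, 197 and 184 CPM with IMP1088 (-0.015 ± 0.083, 95% interval -0.19 to 0.16) and 177, 195 and 180.3 CPM with DDD86481 (-0.039 ± 0.084, -0.21 to 0.14), within or close to its reference of 186 to 194 CPM. ARCN1 was 501, 481 and 525 CPM (0.12 ± 0.13, -0.14 to 0.39) and 421, 459 and 545 CPM (0.042 ± 0.13, -0.22 to 0.31), overlapping with 447 to 486 CPM. COPZ2 was 35.3, 32.2 and 32.9 CPM with IMP1088 (0.35 ± 0.15, adjusted p = 0.0598) and 39.7, 32.7 and 29.0 CPM with DDD86481 (0.36 ± 0.15, adjusted p = 0.0510), above all reference libraries (25.3 to 28.0 CPM) although neither passed the threshold. The call of COPG1 with IMP1088 was lost without replicate 2 of the senescent cells with DMSO (0.25, adjusted p = 0.0609) or with IMP1088 (0.26, adjusted p = 0.0557), and its call with DDD86481 was lost without replicate 1 or 2 with DMSO (adjusted p = 0.0536 and 0.0659) or replicate 1 or 3 with DDD86481 (0.0516 and 0.0596). COPZ2 with DDD86481 was called without replicate 3 of that group (0.46, adjusted p = 0.0237) and by DESeq2 (adjusted p = 0.0458). With IMP1088 and DDD86481 it was called with no filter on low counts (adjusted p = 0.0427 and 0.0357) and with only the groups compared in the fit (0.000619 and 0.0173), which also called ARCN1 with IMP1088 (0.16, adjusted p = 0.0386).

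**Figure D4:**
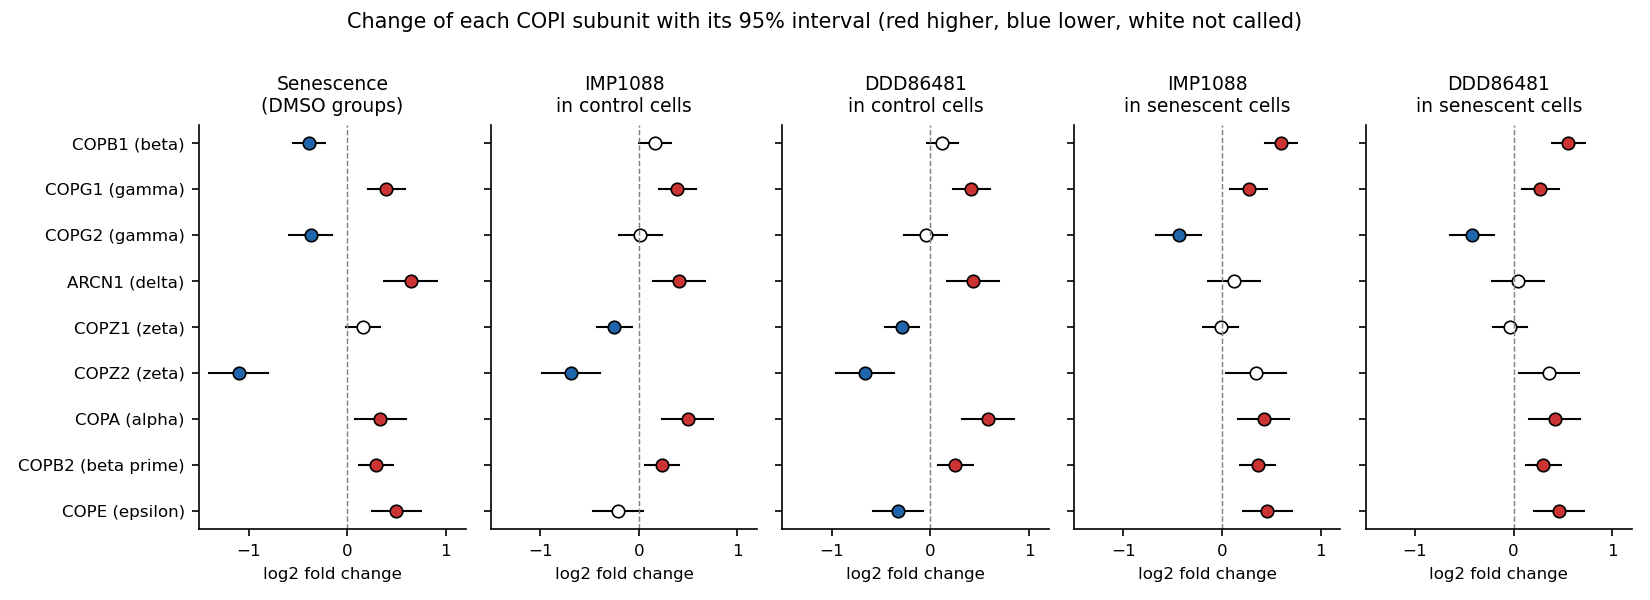
Log2 fold change (x axis) of each COPI subunit (y axis) in the 5 comparisons between groups, with bars for the 95% interval of edgeR's fit. Filled points passed an adjusted p of 0.05 (red higher, blue lower) and white points did not. COPB1 is lower in senescence (-0.39) and higher with either inhibitor in senescent cells (0.59 and 0.56), and COPZ2 is lower in senescence (-1.101) and with either inhibitor in control cells (-0.69 and -0.66).

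In control cells with either inhibitor, COPA, COPG1, ARCN1 and COPB2 were higher and COPZ2 and COPZ1 were lower than with DMSO. Both comparisons share the control cells with DMSO. With IMP1088, 6 of the 9 were called, where 33.7% of all genes were (16.3% higher and 17.4% lower), and with DDD86481 7 of the 9 were, where 36.6% of all genes were (17.8% higher and 18.7% lower), the seventh being a lower COPE. The libraries did not overlap for 7 of the 9 with each, against 41.4% and 43.4% of all genes. The median log2 fold change of the subunits was 0.16 with IMP1088 and 0.12 with DDD86481, near 0 over all genes (-0.0011 with IMP1088).

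COPA was 624, 532 and 619 CPM with IMP1088 (0.50 ± 0.12, adjusted p = 0.00430) and 679.6, 556 and 649 CPM with DDD86481 (0.58 ± 0.12, adjusted p = 0.00119), all above the control libraries with DMSO (325 to 510.0 CPM). COPG1 was 354, 321 and 361 CPM (0.39 ± 0.090, adjusted p = 0.00243) and 385, 318 and 353 CPM (0.42 ± 0.090, adjusted p = 0.00135), above 239 to 291 CPM. ARCN1 was 395, 364 and 418 CPM (0.41 ± 0.13, adjusted p = 0.0183) and 419.7, 363 and 414 CPM (0.43 ± 0.13, adjusted p = 0.0123), where the highest reference library was 354 CPM. In each of these 3 genes replicate 1 was the highest and replicate 3 the lowest of the control libraries with DMSO. COPB2 was 476, 429 and 495 CPM (0.24 ± 0.085, adjusted p = 0.0376) and 515, 423 and 478 CPM (0.25 ± 0.085, adjusted p = 0.0245), against 386 to 408 CPM. COPB1 was 384, 378 and 399 CPM with IMP1088 (0.16 ± 0.078, adjusted p = 0.116) and 406, 353 and 370.4 CPM with DDD86481 (0.12 ± 0.078, adjusted p = 0.228), and COPG2 was 45.6 to 50.2 CPM (0.016 ± 0.10) and 44.9 to 48.4 CPM (-0.047 ± 0.10). Neither passed the test in control cells.

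The short subunits lay on the other side. COPZ2 was 30.6, 35.9 and 38.8 CPM with IMP1088 (-0.69 ± 0.14, adjusted p = 0.000957) and 33.9, 37.5 and 35.5 CPM with DDD86481 (-0.66 ± 0.14, adjusted p = 0.00124), below all control libraries with DMSO (45.4 to 72.2 CPM). COPZ1 was 137, 146 and 145 CPM (-0.25 ± 0.084, adjusted p = 0.0277) and 134, 142 and 139.7 CPM (-0.29 ± 0.084, adjusted p = 0.0107), below 157 to 191 CPM. COPE was 154, 153 and 179 CPM with IMP1088 (-0.21 ± 0.12, adjusted p = 0.186) and 153, 136 and 159 CPM with DDD86481 (-0.33 ± 0.12, adjusted p = 0.0397), close to control replicates 1 and 2 (159 and 170.1 CPM) and below replicate 3 (233 CPM). COPA and ARCN1, which were higher in control cells with the inhibitors, have the longest transcripts of the set, and COPZ2 and COPE, which were lower with DDD86481, have the shortest.

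Several of these calls rested on replicate 3 of the control cells with DMSO. Without it, 4 of the 9 were called with either inhibitor. The share of all genes called in that fit is not given. COPA (0.34 and 0.43, adjusted p = 0.0150 and 0.00315), COPG1 (0.32 and 0.35, adjusted p = 0.00820 and 0.00464) and COPZ2 (-0.47 and -0.45, adjusted p = 0.00439 and 0.00634) were called with IMP1088 and with DDD86481. COPB1 became the fourth with IMP1088 (0.21, adjusted p = 0.0404) and COPB2 remained called with DDD86481 (0.25, adjusted p = 0.0370) but not with IMP1088 (0.23, adjusted p = 0.0529). ARCN1 (0.24 and 0.27, adjusted p = 0.0812 and 0.0548), COPZ1 (-0.15 and -0.19, adjusted p = 0.144 and 0.0583) and COPE (-0.025 and -0.14, adjusted p = 0.885 and 0.309) were not called. Other libraries also decided calls. Leaving out replicate 3 with IMP1088 removed COPB2, COPZ1 and ARCN1 (adjusted p = 0.112, 0.0598 and 0.0640), leaving out replicate 1 with IMP1088 removed COPB2 and COPZ1 (0.0874 and 0.113), and leaving out control replicate 2 removed COPB2 with both inhibitors (0.0825 and 0.0623), while without control replicate 1 COPE was lower with IMP1088 (-0.30, adjusted p = 0.0410). With DDD86481, COPB2 was lost without replicate 1 or 3 (0.112 and 0.0593) and COPE without replicate 1 or 2 (0.0722 and 0.130). Upper quartile scaling also removed COPB2 with IMP1088 and DDD86481 (0.18 and 0.19, adjusted p = 0.0826 and 0.0686). With no filter on low counts, COPB2 was lost with each inhibitor (adjusted p = 0.0994 and 0.0622) and COPZ1 with IMP1088 (0.0768). Fewer calls remained with only the groups compared in the fit, as given further below.

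The response of 3 subunits to the inhibitors differed between senescent and control cells. The difference was tested as an interaction of inhibitor with senescence in edgeR's fit. It was called for 4 of the 9 subunits with IMP1088, 3 positive and 1 negative, where 26.2% of all genes were called (12.1% positive and 14.2% negative), and for 3 of the 9 with DDD86481, all positive, where 30.3% of all genes were called (14.4% and 15.9%). With DDD86481 the share of subunits called, 33.3%, was near that of all genes, so a call by itself did not set the subunits apart. COPZ2, which was higher with inhibitor in senescent cells and lower in control cells, gave an interaction of 1.03 ± 0.20 with IMP1088 (95% interval 0.61 to 1.46, adjusted p = 0.00106) and 1.03 ± 0.20 with DDD86481 (0.60 to 1.45, adjusted p = 0.00109). COPE gave 0.67 ± 0.17 (adjusted p = 0.00706) and 0.78 ± 0.17 (adjusted p = 0.00220). COPB1 gave 0.43 ± 0.11 with each (adjusted p = 0.00706 and 0.00626). COPB1 in control cells with IMP1088 (0.16) missed the threshold (adjusted p = 0.116) but passed it by DESeq2 (0.0353) and without control replicate 3 (0.0404). The 6 interactions of COPZ2, COPE and COPB1 were called in each of the 12 fits that left out 1 library, and without control replicate 3 with DMSO they were 0.82 and 0.81 for COPZ2, 0.48 and 0.60 for COPE, and 0.38 and 0.38 for COPB1. The interactions with IMP1088 and with DDD86481 share the control and the senescent cells with DMSO, so they are not independent.

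COPG2 gave an interaction of -0.46 ± 0.15 with IMP1088 (adjusted p = 0.0300) and -0.38 ± 0.15 with DDD86481 (adjusted p = 0.0635), the latter called with the replicate number as a block (-0.39, adjusted p = 0.0382). The first was lost in 7 of 12 fits that left out a library (highest adjusted p = 0.0959). COPA (-0.076 and -0.17), COPB2 (0.12 and 0.048), COPG1 (-0.12 and -0.15), COPZ1 (0.23 and 0.25) and ARCN1 (-0.28 and -0.39) had no called interaction. For COPA the 95% interval was -0.44 to 0.29 with IMP1088 and -0.53 to 0.20 with DDD86481, so an interaction of that size could have been missed. With DDD86481, ARCN1 was called without control replicate 1 with DMSO (-0.50, adjusted p = 0.0205) or replicate 3 of the senescent cells with DDD86481 (-0.50, adjusted p = 0.0431), COPZ1 without control replicate 1 or 2 (0.33 and 0.34, adjusted p = 0.0321 and 0.0472), and COPG2 without replicate 1 of the senescent cells with DDD86481 (-0.44, adjusted p = 0.0459).

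The balance within each pair of paralogues was read as a count ratio inside a library, which no scaling of libraries affects. COPG1 had 4.98, 5.75 and 5.95 times the counts of COPG2 in control cells with DMSO (from lowest to highest), and 8.45, 9.39 and 10.4 times in senescent cells with DMSO. The ratio was 15.2, 15.4 and 15.6 in senescent cells with IMP1088 and 13.9, 14.3 and 17.6 with DDD86481. In control cells it was 6.39, 7.20 and 7.92 with IMP1088 and 6.97, 7.29 and 8.59 with DDD86481. The ratio was therefore higher in every treated group than in its reference, with no overlap.

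COPZ1 had 2.65, 3.03 and 3.50 times the counts of COPZ2 in control cells with DMSO and 6.93, 7.30 and 7.36 times in senescent cells with DMSO. With inhibitors the ratio came down in senescent cells, to 5.13, 5.58 and 6.11 (IMP1088) and 4.46, 5.95 and 6.22 (DDD86481), and went up in control cells, to 3.75, 4.07 and 4.46 (IMP1088) and 3.79, 3.93 and 3.94 (DDD86481). The ζ ratio thus moved in opposite directions in the 2 states, whereas the γ ratio went up in both. Per kilobase, COPZ2 held between 37.2% and 43.9% of the summed ζ level in control cells with DMSO and between 22.0% and 23.1% in senescent cells with DMSO. For each of the 10 comparisons of a ratio, an exact two-sided permutation test gave p = 0.1 (adjusted p = 0.1 over the 10 tests), the smallest value that 3 libraries against 3 allow. Control replicate 3 had the lowest ζ ratio of its group, 2.65, and without it the log2 difference of the ζ ratio was 1.14 in place of 1.24 in senescence, 0.32 in place of 0.42 with IMP1088 and 0.25 in place of 0.35 with DDD86481 in control cells. That of the γ ratio was 0.81 in place of 0.76, 0.42 in place of 0.37 and 0.50 in place of 0.45 in the same order, and the part of transcript length there was not tested.

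**Figure D5:**
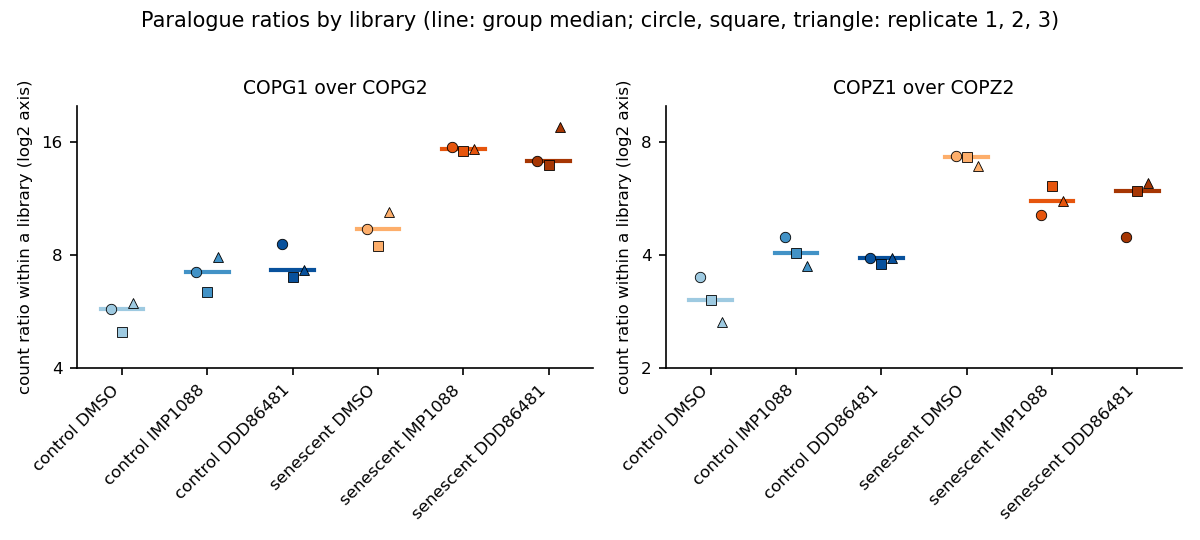
Ratio of counts of COPG1 over COPG2 (left) and COPZ1 over COPZ2 (right) within each library (y axis, log2 scale) in the 6 groups (x axis), with 1 marker per library and a line at the group median. The γ ratio climbs from a median of 5.75 in control cells with DMSO to 15.4 in senescent cells with IMP1088, and the ζ ratio peaks at 7.30 in senescent cells with DMSO.

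Several subunits overlap with other genes, whose part in the results was not tested. MRPS22, a mitochondrial ribosomal gene on the opposite strand, covers 34.1% of the 18721 exonic bases of all annotated COPB2 transcripts. The main COPB2 transcript has 3275 bases, and the share of it that MRPS22 covers was not counted. MRPS22 was 39.2 ± 7.31 CPM in control and 41.8 ± 0.525 CPM in senescent cells with DMSO. In senescent cells with IMP1088 and DDD86481 it was 55.96 ± 3.14 and 53.5 ± 2.58 CPM. The mean of COPB2 in the same groups was 485 CPM with DMSO, 622 CPM with IMP1088 and 597 CPM with DDD86481 in senescent cells. In control cells MRPS22 was 37.5 ± 4.59 CPM with IMP1088 and 35.4 ± 1.58 CPM with DDD86481. The means of COPB2 there were 396 CPM with DMSO and 466 and 472 CPM with the inhibitors. MEST, an imprinted gene on the opposite strand, covers 13.2% of the exonic bases known for COPG2. It was 198 ± 13.3 CPM in control and 3.33 ± 0.359 CPM in senescent cells with DMSO. In senescent cells MEST was 2.12 ± 0.294 CPM with IMP1088 and 1.67 ± 0.494 CPM with DDD86481, where COPG2 had means of 37.0 CPM with DMSO and 27.3 and 27.6 CPM with the inhibitors. In control cells MEST was 112 ± 12.7 CPM with IMP1088 and 104 ± 5.62 CPM with DDD86481. The means of COPG2 there were 47.8 CPM with DMSO and 48.4 and 46.3 CPM with the inhibitors. Protein-coding genes on the same strand, named only by Ensembl identifiers, share 18.2% of the 75-base windows of COPE and 10.2% of those of COPB1. Another gene on the same strand shares 1.94% of those of COPG2. No such window is shared within the pair COPG1 and COPG2 or the pair COPZ1 and COPZ2.

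The genes that act with coatomer were counted in lists of 33 genes in all. In senescent cells with IMP1088, 22 were higher and 1 was lower, and with DDD86481 19 were higher and none was lower, against 44.4% and 43.2% of all genes called in either direction. Their median log2 fold change was 0.45 and 0.35. In control cells 14 were higher and 2 lower with IMP1088, and 14 were higher and 3 lower with DDD86481, where 33.7% and 36.6% of all genes were called (16.3% and 17.8% higher). Without control replicate 3 these counts were 17 and 1, and 12 and 2. In senescence with DMSO 14 were higher and 7 lower (63.6% called, against 68.5% of all genes), which became 10 and 11 with upper quartile scaling and 16 and 4 without control replicate 3. For the counts from these alternative fits, the shares of all genes called are not given. An interaction was called for 10 of the 33 with each inhibitor, all positive, where 26.2% (IMP1088) and 30.3% (DDD86481) of all genes were called.

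ARF1, the GTPase that recruits the coat, was 454 ± 16.4 CPM in control and 739 ± 41.7 CPM in senescent cells with DMSO (0.70 ± 0.086, adjusted p = 4.31e-07), and its differences with inhibitors were between 0.023 and 0.099 log2 units (lowest adjusted p = 0.395). GBF1, its exchange factor at the cis-Golgi, rose in senescence (0.76 ± 0.19, adjusted p = 0.00145) and with inhibitors in control cells (0.68 ± 0.19 and 0.79 ± 0.19, adjusted p = 0.00917 and 0.00321). Its control libraries with DMSO ranged from 60.1 to 135 CPM, and without replicate 3 its changes were 0.51 in senescence and 0.43 and 0.54 with IMP1088 and DDD86481 in control cells (adjusted p = 0.00345, 0.0281 and 0.00735). ARF4, which acts with ARF1 and was singled out after its values were seen, had the largest change of these lists, 2.41 with IMP1088 and 2.20 with DDD86481 in senescent cells (adjusted p = 8.00e-11 and 2.46e-10).

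In senescent cells 44.4% of all genes were called with IMP1088 (20.6% higher) and 43.2% with DDD86481 (20.1% higher), and the partner lists are to be read against these shares. Of 5 ARF GTPases 1 was higher and 1 lower with IMP1088 in senescent cells and 1 was higher with DDD86481, none of the 3 exchange factors was called with either, and both coatomer partner genes were higher with each. Of the 3 GTPase activating proteins, 2 rose with each inhibitor in senescent cells. ARFGAP1 gave 0.70 ± 0.10 with IMP1088 and 0.78 ± 0.10 with DDD86481 (adjusted p = 1.44e-05 and 4.32e-06), and ARFGAP3 gave 0.57 ± 0.089 and 0.60 ± 0.089. Of the 13 cargo receptor genes, 11 were higher with IMP1088 and 8 with DDD86481, none lower. KDELR3, a receptor that returns ER residents from the Golgi in COPI vesicles, went from 205 ± 5.68 CPM to 438 ± 6.95 and 378 ± 46.8 CPM (1.096 ± 0.12 and 0.89 ± 0.12), and KDELR2 gave 0.68 ± 0.095 and 0.64 ± 0.095. TMED2, a p24 protein that couples cargo to coatomer, gave 0.58 ± 0.084 and 0.48 ± 0.084, while TMED10 was called with IMP1088 (0.22 ± 0.077, adjusted p = 0.0282) and not with DDD86481 (0.12 ± 0.077, adjusted p = 0.221). Of the 7 genes of the tether and SNAREs that receive COPI vesicles at the ER, 6 were higher with each inhibitor, with SEC22B at 1.02 ± 0.11 and 0.93 ± 0.11. The largest gain of a subunit, 0.59 for COPB1 with IMP1088, was smaller than those of KDELR3 and SEC22B, and this difference was not tested.

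Other coats gave a mixed picture in senescent cells, where 44.4% of all genes were called with IMP1088 (20.6% higher and 23.9% lower) and 43.2% with DDD86481 (20.1% and 23.1%). Of 11 COPII genes, which encode the coat for export from the ER, 7 were higher and none was lower with each inhibitor (medians 0.40 with IMP1088 and 0.36 with DDD86481). Of 5 subunits of AP-2, the adaptor of endocytosis, none was higher and 2 were lower with each (medians -0.12 and -0.17). Of 7 tested subunits of AP-1 2 were higher and 1 was lower with IMP1088 and 1 was higher with DDD86481, 2 were higher and 1 lower of 6 AP-3 subunits with each, and of 3 clathrin genes 1 was lower with IMP1088 and none was called with DDD86481. The COPI subunits, with 5 higher and 1 lower of 9, lay between COPII and the clathrin adaptors, and the difference between coats was not tested.

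Across the 18 libraries, the mean of the standardised log2 CPM of the 9 subunits was followed most closely by SCFD2, a SEC1 family gene (Pearson r = 0.99), NOC4L (0.99), OGFOD1 (0.98), GDI2, which recycles RAB GTPases (0.98), and CHST6 (0.98). These are descriptions over libraries that share 6 group means. Among the members, COPB2 (0.97) and COPG1 (0.90) lay nearest to that mean, while COPG2 (-0.85) and COPZ2 (-0.36) ran against it.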

How the data were processed

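Poly(A) RNA of 18 libraries was sequenced as single-end reads of 75 bases with a directional kit. The authors deposited 1 table of raw counts per gene. For its making, the labels' processing notes name hg38, DRAGEN, STAR 2.7.8a and DESeq2 1.32.0, whereas the methods of the study name TopHat and hg19, and the strand setting of the counting is not given in the sources used here. The columns of DDD86481 carry a second compound name that the labels pair with it.

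Genes were filtered with filterByExpr (minimum count 10), which kept 14341 of 28266 genes and 99.962% of counts, and scaled by TMM. The quasi-likelihood test of edgeR 4.0.16 (R 4.3.3) was fitted to all 6 groups at once, with Benjamini-Hochberg adjustment over all genes tested and a threshold of 0.05, for 7 comparisons. It was tested on simulated data. Log2 CPM used a prior count of 2. DESeq2 1.42.0, other scalings, no filter, only the groups compared, a replicate block and leaving out each library were alternatives. Count ratios of paralogues were compared by exact permutation tests. Transcript lengths and overlaps came from a GRCh37 annotation, promoters from RefSeq (GRCh38.p14). Overlapping neighbours are described above 10% of the exonic bases of all annotated transcripts, a limit that was chosen with the overlaps known. No libraries were duplicates.

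Genes named were the 9 subunits, fixed examples from the partner lists and 2 overlapping genes, with ARF4 added after its values were seen. Members and lists were chosen with earlier results of these data known, and the letters GACGTG and the 300-base window after reading the promoters. Whether replicate numbers pair the libraries was checked from the correlation across genes of what each library adds to its group mean, between libraries with the same number. For IMP1088 in control cells all 3 correlations exceeded 0.1 (0.39, 0.12 and 0.23), which met the rule for pairing. The values given are without the block, and with the replicate block 6 subunits were called, as without it. In the other comparisons at least 1 correlation was lower.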

Additional observations from a re-analysis of the deposited data

Results flagged for a closer look

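The change with an inhibitor differed between senescent and control cells for these subunits, by the interaction term of edgeR's quasi-likelihood test. With IMP1088 the interaction (log2 change in senescent minus control cells) was 0.43 for COPB1, 0.67 for COPE, -0.46 for COPG2 and 1.03 for COPZ2. With DDD86481 it was 0.43 for COPB1, 0.78 for COPE and 1.03 for COPZ2. Of all genes, 26.2% had a called interaction with IMP1088 and 30.3% with DDD86481. Both interactions use the same libraries with DMSO. COPZ2 changed direction between the states, with higher levels in senescent and lower levels in control cells, though its rise in senescent cells missed the threshold.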

How the results depend on the processing

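Over the alternatives, a single subunit kept its direction and its side of the threshold in 782 cases, lost its call in 52, gained a call in 19 and changed sign in 11. Leaving out 1 library moved each of the 60 paralogue ratio differences by less than 1 SD, and these have no test. With 3 libraries in each group a shift of 1 SD could not occur, so this says nothing of their stability. With only the groups compared in the fit, 2 subunits were called with IMP1088 and 3 with DDD86481 in control cells, from fewer libraries, and 8 pathway genes with each. Leaving out 1 library at a time gave 7 to 8 subunits called in senescence, 5 to 6 with each inhibitor in senescent cells, 3 to 7 (IMP1088) and 4 to 7 (DDD86481) in control cells, and 3 to 4 (IMP1088) and 3 to 5 (DDD86481) interactions, while pathway interactions ran from 4 to 19 and from 6 to 21, highest without control replicate 1 with DMSO. The cause was not tested, and the shares of all genes called in these fits are not given.

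Sign changes were confined, among the alternatives run, to values that were not called. COPG2 with IMP1088 in control cells was -0.035 with upper quartile scaling and COPZ1 with IMP1088 in senescent cells was 0.020 with only the groups compared. Leaving out a library gave -0.053 to 0.0083 for COPZ1 with IMP1088 and -0.069 to 0.12 for ARCN1 with DDD86481 in senescent cells, -0.093 to 0.098 (IMP1088) and -0.16 to 0.030 (DDD86481) for COPG2 in control cells, and -0.21 to 0.077 for the COPA interaction with IMP1088.

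The replicate block changed 1 call, the COPG2 interaction with DDD86481 (-0.39, adjusted p = 0.0382 by edgeR's quasi-likelihood test), for 4 interactions in place of 3, and no other subunit count. In senescence the rule for pairing was not met (correlations 0.051, 0.056 and 0.109), yet all 6 libraries correlated best with their own number. So did 5 of 6 (IMP1088) and 3 of 6 (DDD86481) in senescent cells and 4 of 6 with DDD86481 in control cells. With 3 libraries a group, depth limited COPG2 and COPZ2 the most, with counting errors of up to 5.01%.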
